A study of Saccharomyces cerevisiae with 12 samples.

Results

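Expression in a budding yeast strain lacking USV1 (delUSV1) was set against that of the wild-type strain DBY8778 at the 3 late times of a stationary phase course, 7 hours, 9 hours and 1 day. These are 6 of the 12 arrays of the series, 3 of the deletion and 3 of wild type, and each deletion array was paired with the wild-type array of the same labelled time. Every gene with a value on all 6 arrays was kept, which left 5742 of 6100 genes. The deletion is of the open reading frame YPL230W. The labels name no other allele, medium or treatment, do not say whether the deletion strain is 1 clone, and leave the starting point of the hours open. Each array compared total RNA of 1 sample with a reference RNA that the labels call only "reference", and they name neither its source nor the dyes. There was 1 array per strain and time, and no label mentions separate cultures of a strain. The limma p-values below set a mean difference against a spread over the 3 times that is largely shared across genes. They do not measure the spread between cultures.

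USV1 encodes a zinc finger protein that has been linked to the use of non-fermentable carbon, to salt stress and to cell wall genes. When yeast runs out of glucose it turns to the ethanol and acetate it has made, switches on respiration, the glyoxylate cycle and gluconeogenesis, and shuts down the genes of ribosomes and growth. Cells that later stop dividing thicken their walls and store protective proteins and sugars. The comparison addresses which of these programmes differ in cells without USV1 once that shift is under way.

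Values are log2 ratios of sample to reference, each array centred to a median of 0, so that a difference of 1 between strains is 2-fold. The sources used here give no log base, and 2 was assumed. They do not say which channel is on top of the ratio. Sample over reference is likely, because the USV1 spot was lower in the deletion and because ribosomal protein genes were low on all late arrays of both strains. The late arrays held values for 5931 to 6085 genes each, and the standard deviation over genes was 1.17 to 1.43 in the deletion and 1.21 to 1.46 in wild type. The array of the deletion at 7 hours correlated with wild type at 7 hours at r = 0.92 and with wild type at 9 hours at r = 0.94 (5362 genes, which are not independent). At 5 hours, before the times compared here, the deletion array correlated at r = 0.91 with wild type at 7 hours and at r = 0.47 with wild type at 5 hours. Differences between strains at 1 labelled time therefore include any difference in how far each culture had gone, and strain, culture and array cannot be told apart.

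The strains differed at each time, and the differences were only weakly alike between times. At 2-fold or more, 461 genes (8.03%) stood apart at 7 hours, 336 higher in the deletion (5.85%) and 125 lower (2.18%). At 9 hours there were 359 (6.25%), 205 higher (3.57%) and 154 lower (2.68%). At 1 day there were 1039 (18.1%), 518 higher (9.02%) and 521 lower (9.07%). Across genes, the difference at 7 hours correlated with that at 9 hours at r = 0.18 and with that at 1 day at r = 0.17, and the 9-hour and 1-day differences correlated at r = 0.15. The gene highest in the deletion was another at each time. NCE103, a carbonic anhydrase, was higher by 4.76 at 7 hours and lower at the later times (-0.47 at 9 hours and -1.58 at 1 day). PDC6, a minor pyruvate decarboxylase, was higher by 5.38 at 1 day and lower at 7 and 9 hours (-0.83 and -0.61). RRT5, a gene of unknown function, was higher by 3.36 at 9 hours alone, with -0.69 at 7 hours and -0.78 at 1 day. USV1 was the lowest gene at all 3 times.

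**Figure D1:**
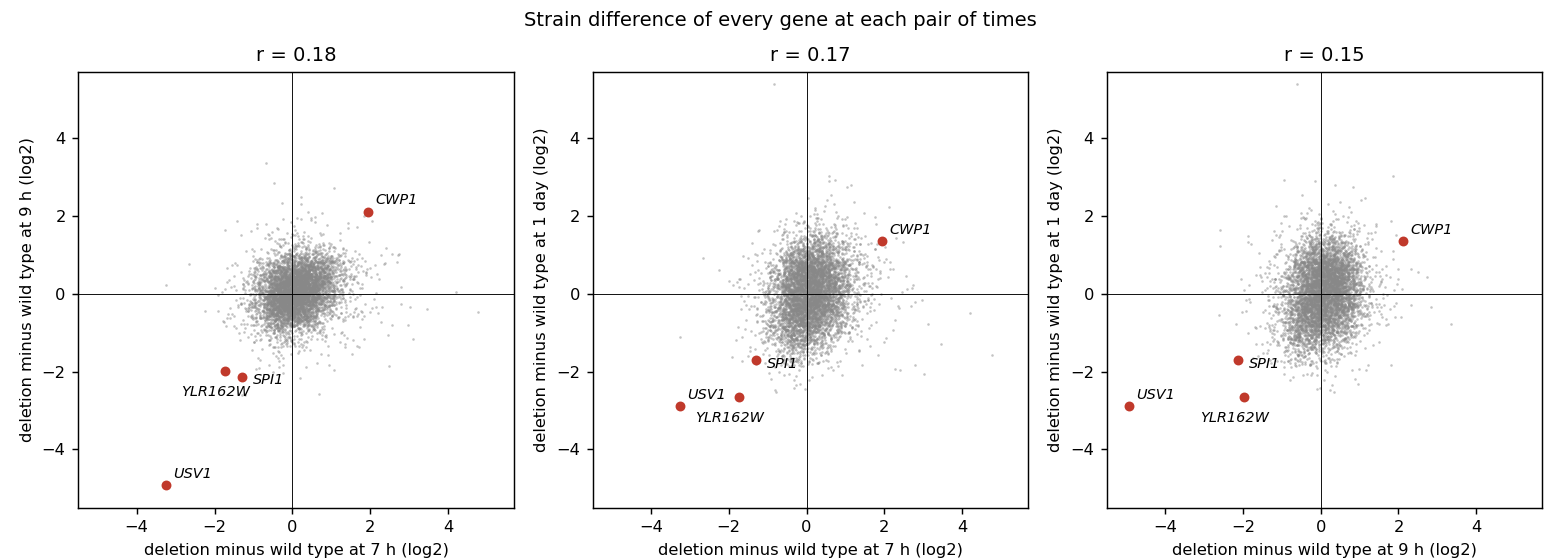
The difference between strains (deletion minus wild type, log2) of all 5742 genes at one time against another, 1 point per gene. The cloud is nearly round in each panel (r = 0.18, 0.17 and 0.15), while USV1, YLR162W and SPI1 lie in the lower left corner and CWP1 in the upper right in all 3 panels.

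In all, 1963 genes (34.2%) had a difference of 1 sign at the 3 times. A difference of at least 0.5 at each time, called steady here, was seen for 125 genes higher in the deletion (2.18%) and 85 lower (1.48%). The balance depended on how arrays were put on 1 scale: 94 were higher and 118 lower with the values as deposited, and 63 higher and 131 lower after quantile normalization. At 1 or more at each time there were 5 genes higher (0.0871%; CWP1, ARO10, YJL213W, YAT1 and PHO5) and 4 lower (0.0697%; USV1, YLR162W, SPI1 and MPC2). By limma with time point in the fit, 2 of the 5742 genes (0.0348%) passed an adjusted p of 0.05 (Benjamini-Hochberg over all genes), and both were lower in the deletion. None passed in the other direction by limma, where 379 genes had an unadjusted p under 0.05 (6.6%) and 265 did so among the lower genes (4.62%). With the values as deposited these were 297 and 348, and after quantile normalization 278 and 399.

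The deleted gene itself gave the first of the 2 calls. USV1 had log2 ratios of 1.14, -0.98 and -0.29 in the deletion at 7 hours, 9 hours and 1 day, against 4.40, 3.94 and 2.59 in wild type. All 3 deletion arrays lay below all 3 wild-type arrays. USV1 was lower in the deletion by 3.69 ± 0.37 on the log2 scale (SE, 3 pairs; limma adjusted p = 0.00118). The gap was widest at 9 hours (-4.92), against -3.26 at 7 hours and -2.88 at 1 day. At 0 hours USV1 stood at -1.0 in the deletion and -0.57 in wild type, a difference of -0.43. The labels do not say which part of the gene was removed or where the spot lies in it.

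None of the 6 nearest genes measured beside USV1 on the chromosome was lower in the deletion at all 3 times. ALG5, an endoplasmic reticulum glucosyltransferase, differed by -3.25 at 7 hours, 0.23 at 9 hours and -1.10 at 1 day. Its wild-type ratio at 7 hours was 1.03, whereas the other 5 late arrays read -2.54 to -1.44. The nearer neighbours YPL229W, an uncharacterised gene, and FAS2, a subunit of fatty acid synthase, differed by 0.71, -0.18 and 1.05 and by 1.08, 0.11 and 0.12. CET1, which caps messenger RNA, was 0.50, 0.60 and 0.37 higher. SSO1, a membrane fusion protein of secretion, differed by 0.02, -0.42 and -0.01, and NSL1, a kinetochore subunit, by 0.24, 0.23 and 0.45. None of these 6 genes passed the limma test, and the unadjusted p of ALG5 was 0.0144.

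YLR162W, a protein of unknown function encoded near the asparaginase genes that border the ribosomal DNA, gave the other call. It had log2 ratios of 0.18, 0.76 and -0.42 in the deletion, against 1.92, 2.74 and 2.23 in wild type at 7 hours, 9 hours and 1 day. The groups did not overlap. YLR162W was lower in the deletion by 2.12 ± 0.30 (SE, 3 pairs; limma adjusted p = 0.0227), and its difference widened over the times, at -1.74, -1.98 and -2.65. At 0 hours both strains were low, at -2.02 in the deletion and -2.15 in wild type. None of its measured neighbours was lower at all 3 times. YLR161W differed by 0.68, -0.12 and -0.26, the asparaginase gene ASP3-4 by 0.73, -0.54 and 0.06, and MAS1, a mitochondrial processing protease subunit, by 0.85, 0.25 and -0.01. SHH4, an alternative succinate dehydrogenase subunit beyond MAS1, differed by 1.80, -0.64 and 1.29. Both calls were lost without the 1-day pair, which leaves 2 pairs (adjusted p = 0.559 for each), and when the fit ignored time (adjusted p = 0.139 for USV1 and 0.208 for YLR162W). They were also lost when the spread was shared with the pairs at 0 and 5 hours (adjusted p = 0.412 and 0.918), and that of YLR162W after quantile normalization (adjusted p = 0.0594).

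**Figure D2:**
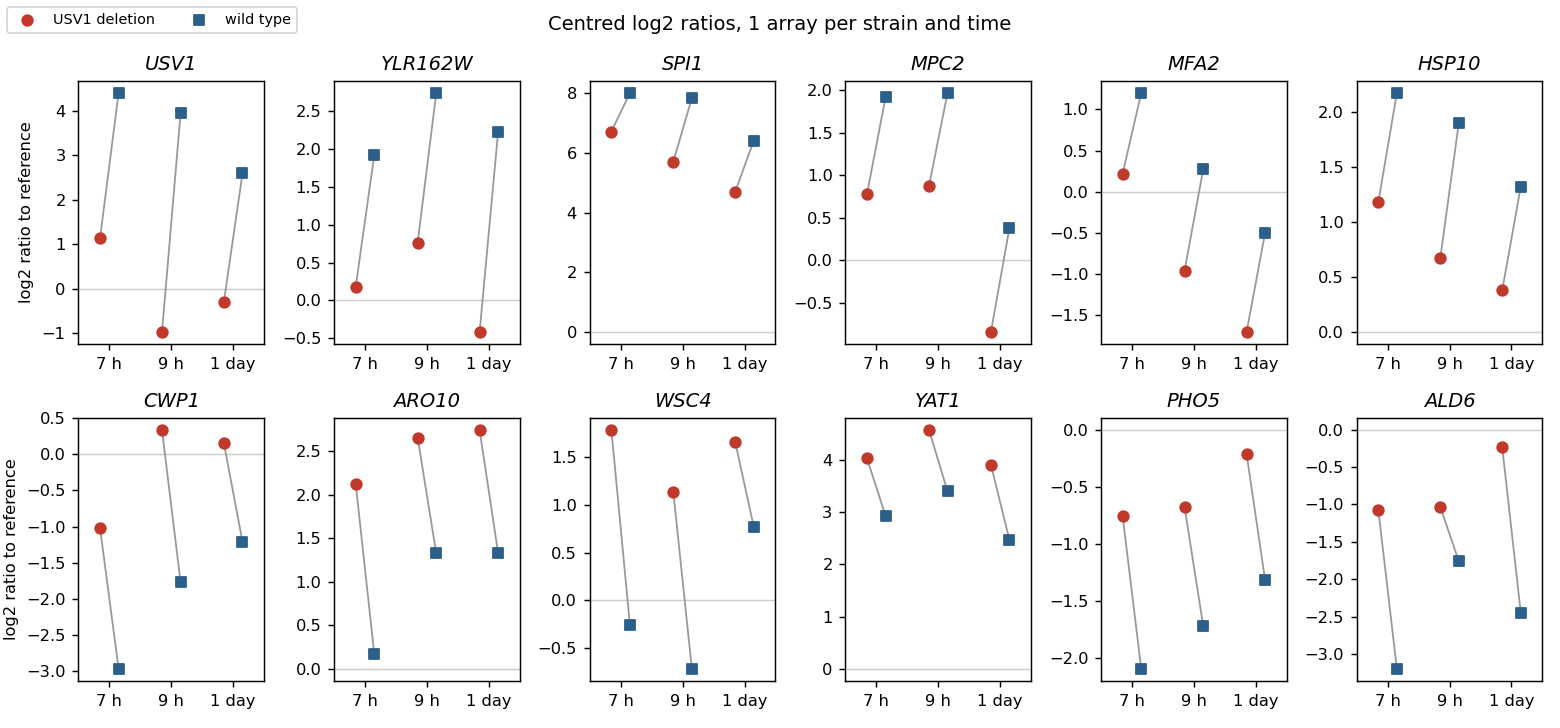
Centred log2 ratios to the reference at 7 hours, 9 hours and 1 day for 12 genes, with the deletion as circles on the left of each pair and wild type as squares on the right, 1 array per point. The top panels hold genes lower in the deletion and the bottom panels genes higher in it, with vertical scales that differ between panels.

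Among the genes lower in the deletion, SPI1 came next. It encodes a wall protein held by a lipid anchor that accumulates in stationary phase. SPI1 stood at 6.71, 5.7 and 4.70 in the deletion, against 8.0, 7.83 and 6.41 in wild type, so it was far above the reference in both strains and lower in the deletion at each time. Its mean difference was -1.71 ± 0.29 and missed the threshold (limma adjusted p = 0.0870). Its 2 ranges overlapped, because wild type at 1 day was below the deletion at 7 hours. At 0 hours SPI1 was already lower, by -0.97.

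MPC2, a subunit of the carrier that brings pyruvate into mitochondria, had nearly the same difference at each time (-1.14, -1.10 and -1.23). Its ratios were 0.78, 0.87 and -0.85 in the deletion, against 1.92, 1.97 and 0.38 in wild type. Both strains were lower at 1 day than at the earlier times. HSP10, the mitochondrial chaperonin, read 1.18, 0.67 and 0.38 in the deletion and 2.17, 1.90 and 1.32 in wild type, with no overlap. HAC1, the regulator of the unfolded protein response, differed by -0.93, -1.19 and -0.86. TEC1, a regulator of filamentous growth, differed by -1.05, -1.44 and -0.87. NFG1, a cell wall protein that restrains filamentous growth, read -1.51, -1.10 and -1.78 in the deletion and -0.01, -0.27 and -0.18 in wild type. Wild type thus stayed near the reference while the deletion was below it at every time. HPF1, a wall mannoprotein, differed by -0.88, -1.65 and -1.28, and FDC1, which decarboxylates cinnamic and ferulic acid, by -0.81, -0.94 and -1.89. IMP21, a regulator of sugar use, differed by -1.07, -0.81 and -0.88. The uncharacterised frames YOR013W and YOL131W differed by -1.46, -0.87 and -1.46 and by -0.81, -0.83 and -0.92. The adjusted p of these genes after SPI1 was at least 0.315 in limma. Against the wild-type arrays 1 step later, the mean difference was -0.11 for TEC1 (-1.12 at the same labelled times), -0.47 for FDC1 (-1.21), -0.64 for MPC2 (-1.16), -0.83 for HPF1 (-1.27), -0.61 for IMP21 (-0.92) and -0.94 for SPI1.

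Among the genes higher in the deletion, the one whose smallest difference over the 3 times was largest was CWP1, a mannoprotein linked to wall glucan. CWP1 read -1.02, 0.34 and 0.15 in the deletion, against -2.97, -1.77 and -1.21 in wild type. Every deletion array was above every wild-type array. The mean difference was 1.81 ± 0.29 (limma adjusted p = 0.0640), and at 0 hours it was 0.29. ARO10, a decarboxylase that turns aromatic and branched amino acids into fusel alcohols, read 2.13, 2.66 and 2.75 in the deletion, against 0.17, 1.33 and 1.33 in wild type (mean difference 1.57 ± 0.29, adjusted p = 0.131). CWP1 and ARO10 also passed, with USV1 and YLR162W, when all arrays were scaled to the same spread.

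CWP1 and ARO10 were followed by genes of several kinds. WSC4, a membrane protein of the WSC stress-sensor family, read 1.79, 1.14 and 1.66 in the deletion and -0.26, -0.72 and 0.77 in wild type (mean difference 1.60 ± 0.31, adjusted p = 0.186). It was also higher by 0.79 at 0 hours. MNN11, which extends the mannose chains of wall proteins in the Golgi, differed by 1.31, 1.18 and 0.89. PTK2, a kinase that activates the plasma membrane proton pump, differed by 1.19, 0.86 and 0.88. YAT1, the mitochondrial carnitine acetyltransferase, read 4.03, 4.58 and 3.91 in the deletion, against 2.93, 3.4 and 2.47 in wild type. All 6 arrays were well above the reference, and the strains did not overlap. PHO5, the secreted acid phosphatase, read -0.76, -0.68 and -0.21 in the deletion and -2.10, -1.72 and -1.32 in wild type. YJL213W, a putative amidohydrolase, differed by 1.38, 1.13 and 1.29. COT1, which moves zinc and cobalt into the vacuole, differed by 0.93, 1.11 and 1.77, and FET5, a vacuolar multicopper oxidase of iron transport, by 1.0, 0.96 and 0.85. CIA2, a factor of cytosolic iron-sulfur protein assembly, differed by 0.93, 0.91 and 1.14. RPA190, the largest subunit of RNA polymerase I, differed by 0.91, 0.86 and 1.35, LDS2, a protein of spore wall formation, by 1.51, 0.84 and 1.49, and ELP3, the catalytic subunit of Elongator, by 1.29, 0.84 and 0.87. Against the wild-type arrays 1 step later, the mean difference was -0.41 for RPA190 (1.04 at the same labelled times), -0.05 for YAT1 (1.24) and 0.04 for ELP3 (1.0). It was 0.77 for ARO10, 0.73 for COT1 (1.27) and 0.66 for MNN11 (1.13). Apart from WSC4, the limma adjusted p of these higher genes was at least 0.315. At 0 hours RPA190 was already higher by 1.32, ELP3 by 0.70, PHO5 by 0.56, YAT1 by 0.43 and LDS2 by 0.34. The other genes named here after WSC4 were lower in the deletion at 0 hours.

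**Figure D3:**
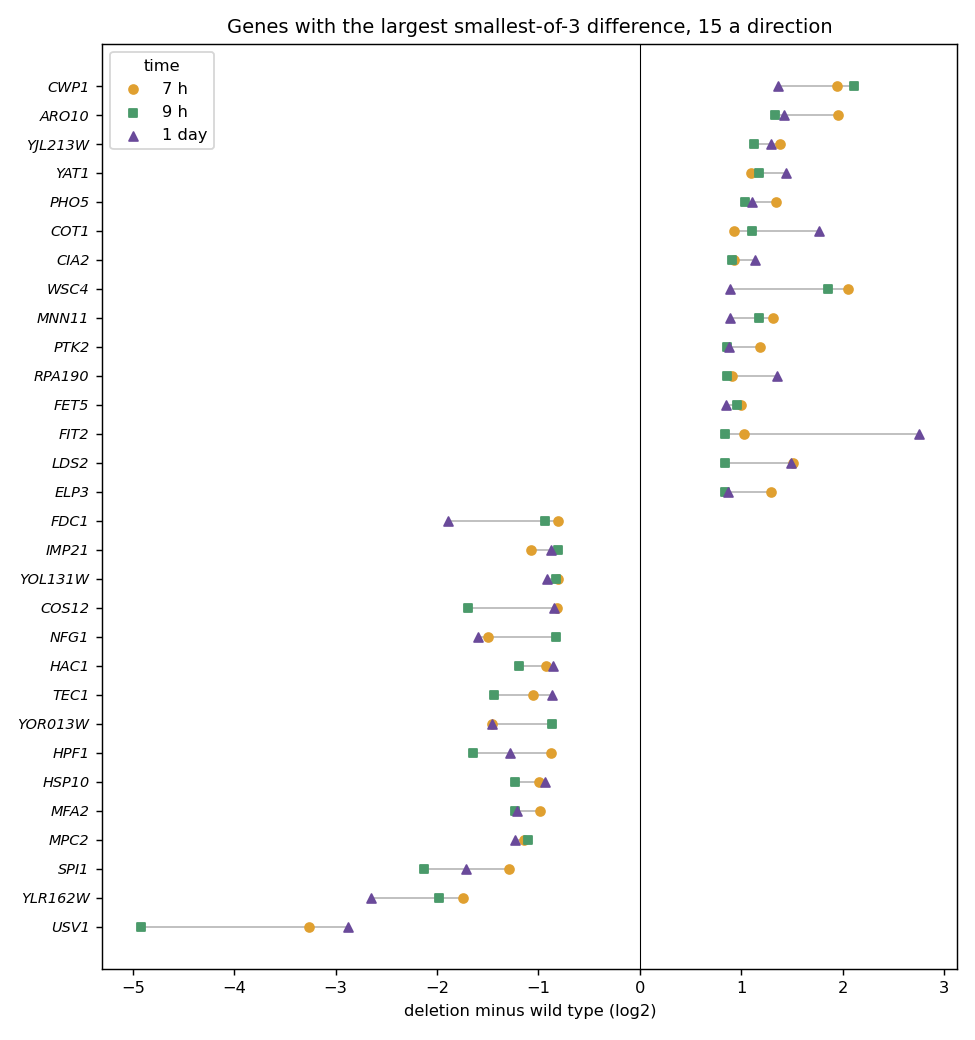
The difference between strains (deletion minus wild type, log2) at 7 hours, 9 hours and 1 day for the 15 genes higher and the 15 lower whose smallest difference over the 3 times was largest. Points are single pairs of arrays and lines join the lowest to the highest. USV1, YLR162W and SPI1 lie farthest to the left and CWP1 at the top on the right, and FIT2 has the widest spread among the higher genes (0.84 to 2.75).

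Functions were read from 87 gene lists. A function counted as differing the same way where at least 4 members were measured and the median difference of its members had 1 sign and reached 0.25 at each of the 3 times. Over all genes tested the median difference was 0.09, 0.05 and 0.05. In the deletion, 2 functions were higher by this rule, the glyoxylate cycle with gluconeogenesis and NAD synthesis. Another 2 were lower, the COS family and the markers of mating type a. The choice of scale decided which functions met the rule. After quantile normalization and with arrays scaled to 1 spread neither of the 2 higher functions met it, and with the values as deposited NAD synthesis did not. The COS family and mating type a met it on all 3 of these scales, and pyrimidine synthesis, with medians of -0.26, -0.23 and -0.51 here, met it as deposited and after quantile normalization. None of the members of the 4 lists passed limma's adjusted threshold. An unadjusted p under 0.05 was reached, in the direction of the list, by 7 of 14 glyoxylate and gluconeogenesis genes and 3 of 14 NAD genes (6.6% of all genes were higher at that p), and by 5 of 11 COS genes and 3 of 7 mating type a markers (4.62% were lower). With 1 time left out, 9 to 12 functions met the rule on the other 2 times: 9 without 7 hours, 11 without 9 hours and 12 without 1 day.

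**Figure D4:**
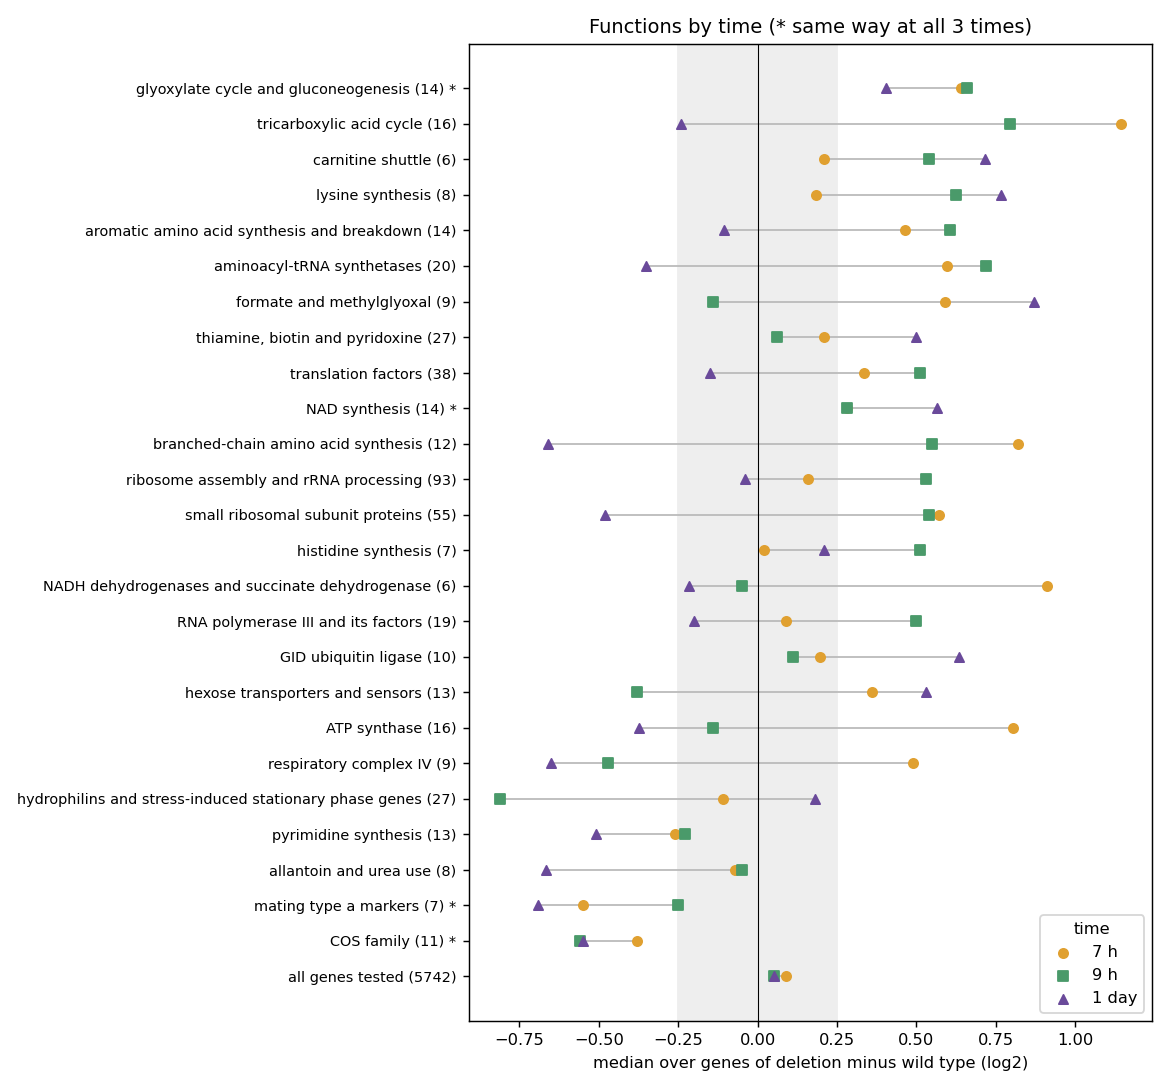
Median difference between strains (deletion minus wild type, log2) over the members of each gene list at 7 hours, 9 hours and 1 day, for lists whose median reached 0.5 at any time and for all genes tested, with the number of members measured in brackets. Stars mark the 4 functions that differed the same way at all 3 times, and the grey band spans -0.25 to 0.25. Many lists lie right of 0 at 7 and 9 hours and left of it at 1 day.

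The list of the glyoxylate cycle and gluconeogenesis, which build sugar from acetate, had a higher median in the deletion at all 3 times. It holds transporters as well as enzymes. The median difference of the 14 members measured was 0.64 at 7 hours, 0.66 at 9 hours and 0.41 at 1 day. The median level of the list was 4.15, 5.02 and 3.86 in the deletion, against 2.38, 3.96 and 3.51 in wild type, so the pathway was high in both strains and highest at 9 hours. The mean difference was above 0 for 13 of the 14 genes, against 3286 of all 5742. At each time alone 12, 9 and 9 members were higher, against 3228, 3072 and 2988 of all genes. Higher at every time were 5 (ICL1, ACS1, JEN1, ICL2 and ADY2), against 19.7% of all genes tested. Groups did not overlap for 0 of the 14, against 8.22% of all genes higher and 6.98% lower. ICL1, isocitrate lyase, which opens the glyoxylate cycle, read 4.10, 6.06 and 4.76 in the deletion, against 3.03, 3.33 and 4.33 in wild type (mean difference 1.41 ± 0.39). ACS1, acetyl-CoA synthetase, read 4.19, 5.79 and 5.07 in the deletion, against 2.34, 3.79 and 4.69 in wild type (mean difference 1.41 ± 0.34). For both genes the strains were close at 1 day, and their ranges overlapped. JEN1, the lactate and pyruvate importer, was the 1 member with a steady difference, at 1.26, 0.50 and 0.66. Its 9-hour value lay on the 0.5 limit. Of all genes tested, 2.18% were steadily higher.

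Other members of the list, enzymes and transporters, changed direction between times. MLS1, malate synthase, differed by 2.68, 0.82 and -0.31, and FBP1, the fructose bisphosphatase of gluconeogenesis, by 3.11, -1.17 and -0.78. SFC1, the mitochondrial succinate and fumarate exchanger, differed by 2.78, -0.27 and -1.84. These 3 genes were much lower in wild type at 7 hours than at 9 hours, at 2.41 and 5.7 for MLS1, 2.93 and 7.34 for FBP1, and 1.99 and 5.0 for SFC1. MAE1, malic enzyme, was low in both strains and differed by -0.27, 2.33 and 0.65, and ATO3, an ammonium exporter of the acetate transporter family, by -0.69, 1.80 and 1.86. DAL7, the malate synthase of allantoin use, differed by 0.07, -0.34 and -0.82. When each deletion array was set against the wild-type array 1 step later, the median over genes of the mean difference was -0.03, against 0.71 at the same labelled times. At 0 hours the median difference of the list was 0.41.

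NAD synthesis met the rule by a smaller margin and through few genes, and on none of the 3 other scales. In the mean, 10 members were higher and 4 lower, against 3286 and 2445 of all genes tested. The median difference of its 14 members was 0.28, 0.28 and 0.57 at 7 hours, 9 hours and 1 day, and 4 of 14 members were higher at every time, against 19.7% of all genes tested. NPT1, which salvages nicotinic acid, read -1.84, -1.28 and -0.79 in the deletion, against -2.50, -2.00 and -1.84 in wild type. Each deletion array was above its wild-type pair, though the ranges met at -1.84. NRT1, the transporter of nicotinamide riboside, read 0.28, 0.11 and 0.72 in the deletion and -0.63, -0.61 and -0.48 in wild type. NRT1 and BNA7 were the 2 of 14 members whose groups did not overlap, both higher, against 8.22% of all genes tested. BNA7, the kynurenine formamidase of the route from tryptophan, differed by 0.59, 1.98 and 0.64. QNS1, which makes NAD in the last step, differed by 0.36, 0.22 and 0.53, below the steady size. Against the group stood NMA1 (-0.59, 0.28 and -1.68), an adenylyltransferase of the same pathway, and BNA3 (-0.59, 0.61 and -1.60), a kynurenine aminotransferase. PNC1, the nicotinamidase, was high in both strains and differed by -0.52, -0.51 and 0.20. The median over genes of the mean difference was 0.26, and 0.08 without the 1-day pair. At 0 hours the median difference of the list was -0.36.

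The COS family, genes near chromosome ends whose proteins sort membrane proteins to the vacuole, was lower in the deletion. The median difference of the 11 members was -0.38, -0.56 and -0.55. The median level was 0.51, 0.72 and 0.24 in the deletion, against 0.98, 1.23 and 0.79 in wild type. Groups did not overlap for 7 of 11 genes (COS12, COS9, COS2, COS4, COS6, COS8 and COS5), all lower, against 6.98% of all genes tested. COS12 read -0.68, -1.62 and -0.94 in the deletion and 0.14, 0.07 and -0.09 in wild type. COS9 differed by -0.32, -0.79 and -2.21, COS2 by -0.35, -0.93 and -1.75, and COS6 by -0.56, -0.78 and -0.55. COS7 (-0.20, 0.50 and 0.30) and COS10 (-0.38, -0.05 and 0.90) ran the other way in the mean, and COS1 and COS3 differed by -0.09 and -0.18 in the mean. These genes are close copies, and spots of close copies can bind each other's transcripts, so the 7 may not be separate measurements. The median over genes of the mean difference was -0.59, -0.41 with arrays scaled to the same spread, and -0.11 against the wild-type arrays 1 step later. At 0 hours the list's median difference was -0.14. COS4 and COS6 were already lower then, by -1.05 and -0.93, against late means of -0.70 and -0.63. COS8 and COS5 differed by -0.14 and -0.16 at 0 hours, and COS12, COS9 and COS2 by 0.19, 0.38 and 0.08.

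Of the 7 markers of mating type a, 4 were lower in the deletion at all 3 times, against 14.4% of all genes tested. MFA2, which encodes the pheromone a-factor, read 0.22, -0.96 and -1.71 in the deletion, against 1.20, 0.27 and -0.50 in wild type. In both strains the ratio was lower at each later time, and the deletion was below wild type by -0.98, -1.23 and -1.21. BAR1, the protease that degrades alpha-factor, differed by -1.03, -0.62 and -1.10. STE2, the alpha-factor receptor, differed by -1.07, -0.20 and -0.69, and MFA1, the other a-factor gene, by -0.34, -0.63 and -0.76. AGA2, the a-agglutinin subunit, differed by -0.02, 0.54 and 0.49, STE6, the a-factor exporter, by -0.23, -0.25 and 0.75, and ASG7 by -0.55, -0.01 and 0.82. The list's median was -0.55, -0.25 and -0.69, on the 0.25 limit at 9 hours, and no member's groups were free of overlap. The median of the mean difference was -0.58, and 0.39 against the wild-type arrays 1 step later, where the mean difference of MFA2 was -0.47 (-1.14 at the same labelled times). The measured markers of mating type alpha (3 genes) lay between -0.70 and 0.30 in the deletion and between -0.67 and 1.07 in wild type. All 3 were lower in the deletion at 7 hours, at 9 hours and in the mean (median of the mean difference -0.33). At 1 day 2 were higher and 1 lower. With 3 genes the alpha list was too small for the rule. Among them STE3, the a-factor receptor, differed by -0.17, -1.18 and 0.37. HMLALPHA1, which is not among these 3 and was picked after its values were seen, was steadily lower (-0.55, -0.70 and -1.32), with no overlap. The cause of the lower values was not tested. The haploid and pheromone response list (16 genes) had medians of -0.20, -0.01 and 0.24, and the sporulation list (15 genes) -0.15, -0.19 and 0.36. The 6 genes measured that often serve as selection markers gave -0.22, 0.36 and 0.15.

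**Figure D5:**
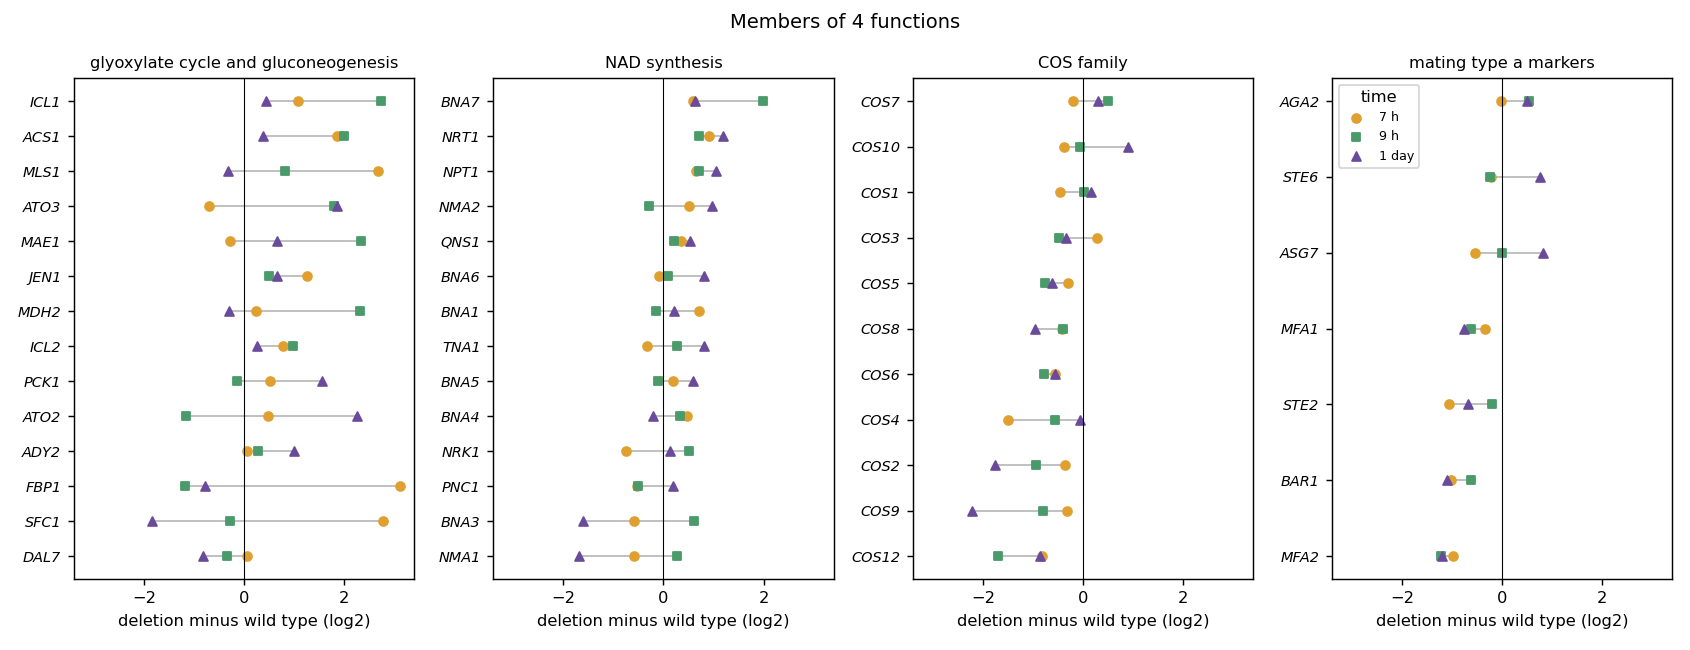
The difference between strains (deletion minus wild type, log2) at 7 hours, 9 hours and 1 day for every measured member of the 4 functions, 1 row per gene with a line from the lowest to the highest. JEN1, NPT1, NRT1, BNA7, COS12, COS6, MFA2 and BAR1 have all 3 points at least 0.5 from 0 on 1 side, and FBP1 and SFC1 have points on both sides more than 3 apart.

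Several large functions differed the same way at 7 and 9 hours and the other way at 1 day. Small ribosomal subunit proteins had median differences of 0.57, 0.54 and -0.48 over 55 genes. Their median level was -2.99, -2.33 and -2.70 in the deletion, against -3.51, -2.73 and -2.18 in wild type. Ribosomal protein genes were thus low everywhere, less so in the deletion at 7 and 9 hours and less so in wild type at 1 day. Large subunit proteins (80 genes) had medians of 0.47, 0.42 and -0.33, and aminoacyl-tRNA synthetases (20 genes), which charge transfer RNA, 0.60, 0.72 and -0.35. Enzymes of branched-chain amino acid synthesis (12 genes) gave 0.82, 0.55 and -0.66. The tricarboxylic acid cycle (16 genes) was higher in the deletion by 1.15 at 7 hours and 0.80 at 9 hours, and its median was -0.24 at 1 day. Within it LSC1, a subunit of succinyl-CoA ligase, was higher at every time (1.12, 0.63 and 1.31). Respiratory complex IV and ATP synthase changed sign between 7 and 9 hours instead. Complex IV (9 genes) was higher at 7 hours only, at 0.49, with -0.47 at 9 hours and -0.65 at 1 day. ATP synthase (16 genes) gave 0.81, -0.14 and -0.38. Hydrophilins and other stress-induced stationary phase genes (27 genes) differed by -0.11, -0.81 and 0.18. These changes of direction were not tested, as each time had 1 pair of arrays.

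Functions with steady members but no common direction included the cell wall. Of 22 wall mannoproteins measured, CWP1 and FLO1 were steadily higher (2.18% of all genes were) and SPI1 and NFG1 steadily lower (1.48% of all genes). FLO1, a flocculin that makes cells adhere, differed by 0.60, 0.51 and 1.13. The list's medians were 0.24, 0.23 and 0.07. Outside that list, wall genes also went both ways. HPF1, given above, was steadily lower (-0.88, -1.65 and -1.28). TIR1, a wall mannoprotein of cold and low oxygen, differed by 0.79, 1.30 and 1.57. OCH1, which starts the outer mannose chain, differed by 0.74, 1.04 and 0.56, and ECM33, a lipid-anchored wall protein, by 0.59, 0.63 and 0.77. FLO1, TIR1, OCH1, ECM33 and the genes named from here to the comparison with 0 hours were picked after their values were seen.

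Sterol synthesis had 4 steadily higher members of 28, against 2.18% of all genes: ERG2, ERG3 and ERG7, enzymes of the ergosterol route, and UPC2, its regulator. UPC2 read -0.57, 0.06 and 0.05 in the deletion and -1.26, -0.84 and -1.19 in wild type, with no overlap. The list's medians were 0.16, 0.43 and -0.04. ALD6, which makes acetate in the cytosol, differed by 2.13, 0.73 and 2.22 (mean difference 1.69 ± 0.34, limma adjusted p = 0.191), with -1.07, -1.03 and -0.23 in the deletion against -3.20, -1.76 and -2.45 in wild type.

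The iron regulon had 3 steadily higher members of 26, against 2.18% of all genes. FIT2, a wall mannoprotein that retains iron carriers, read 1.41, 1.68 and 2.68 in the deletion, against 0.38, 0.84 and -0.07 in wild type. FET5 was given above, and TIS11, which degrades messenger RNA of iron-using enzymes when iron is scarce, differed by 0.94, 0.61 and 0.67. FIT3, of the same family as FIT2, differed by 1.23, 0.49 and 2.37. Phosphate genes had 3 steadily higher members of 22 (PHO5, PHO12 and VTC1) and 1 steadily lower (PHM6, at -0.68, -0.84 and -0.75), against 2.18% and 1.48% of all genes. VTC1, a subunit of the polyphosphate polymerase, differed by 0.78, 1.16 and 1.08. PHO12, an acid phosphatase, differed by 0.59, 1.85 and 3.04, and PHO11 by 0.48, 1.94 and 1.5, but these 2 genes are near-identical and their spots cannot be told apart with certainty.

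Chaperones of the HSP70, HSP90 and HSP100 list had 3 steadily lower members of 28 (HSP10, KAR2 and SSE1), against 1.48% of all genes, and none steadily higher. KAR2, the HSP70 of the endoplasmic reticulum and a target of HAC1, read -0.98, -0.91 and 0.00 in the deletion, against 0.78, -0.18 and 0.86 in wild type. SSE1, the nucleotide exchange factor of cytosolic HSP70, differed by -0.79, -0.98 and -1.14. The medians of the chaperone list were -0.15, -0.25 and -0.26. The endoplasmic reticulum folding list (18 genes) had medians of 0.18, 0.17 and -0.11. At every time 5 of its members were higher and 4 lower, against 19.7% and 14.4% of all genes. Of 35 proteasome genes, RPN13, the ubiquitin receptor, and RPT5, an ATPase of the base, were steadily lower (-0.58, -1.30 and -1.69, and -0.71, -0.68 and -1.10), against 1.48% of all genes, and the list's medians of -0.16, 0.04 and -0.18 had no common sign. Ribosome assembly had 5 steadily higher members of 93, against 2.18% of all genes, among them NOC4 at 0.78, 0.83 and 1.53 and BMS1 at 1.69, 0.57 and 0.75. Its medians were 0.16, 0.53 and -0.04.

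The late difference was also compared with that at 0 hours. When the mean late difference was set against the difference at 0 hours in limma (5628 genes, 8 arrays), none passed an adjusted p of 0.05 (0.0%), and 272 (4.83%) had an unadjusted p under 0.05. Late minus 0 hours, USV1 differed by -3.26 ± 0.74 (adjusted p = 0.873) and YLR162W by -2.25 ± 0.59 (adjusted p = 0.873). The 2 smallest p-values belonged to FIT2 and VTC1, which changed sign. FIT2 was 1.54 higher in the late mean and differed by -2.40 at 0 hours (late minus 0 hours 3.94 ± 0.73, adjusted p = 0.342). VTC1 was 1.01 higher in the late mean and differed by -2.02 at 0 hours (3.03 ± 0.56, adjusted p = 0.342). FIT3 also changed sign, with 1.36 in the late mean and -1.99 at 0 hours (3.35 ± 0.70, limma adjusted p = 0.651). The iron genes TIS11 and FET5 differed by -1.06 and -0.52 at 0 hours. The median of the iron regulon list was -0.24 at 0 hours. HXK1, a hexokinase, and TSL1, a subunit of trehalose synthase, also had large negative values at 0 hours (-2.07 and -1.96), against late means of 0.84 and 0.32. In the other direction, MCO14 differed by -0.80 in the late mean and 1.84 at 0 hours, and NAF1, a factor of small nucleolar ribonucleoprotein assembly, by -0.73 and 1.5.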

How the data were processed

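The authors deposited 1 table of log ratios for 6100 open reading frames, with a column per array. Its base was read as log2, which the deposited table does not state. The scanner software, background correction, spot filter, normalization, log base and ratio direction were not given in the sources used. Other samples' columns numbered 0. Systematic names were matched to a RefSeq table of assembly R64 (5592 matched, 508 kept their systematic name), used only for names and gene order.

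The median of each array was set to 0. The late strain difference was fitted with limma 3.58.1 in R 4.3.3, by lmFit and eBayes, on 6 arrays, with time point as a factor, which leaves 2 residual degrees of freedom per gene. Genes with values on all 6 arrays entered (5742), and 358 did not. P-values were adjusted by Benjamini-Hochberg over all genes tested and called at 0.05. Errors are standard errors of the moderated fit. Its spread shared across genes had 10.92 prior degrees of freedom and so outweighed each gene's own. The pairing is that of the labelled times, since every strain and time has only 1 array. In the comparison with 0 hours, the spread came from the 3 late differences.

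Of 1970 entries in the 87 lists, 1815 were measured on all 6 arrays, 89 lacked a value on some array, 54 had no spot and 12 had no match. The members, the lists, the sizes of 0.5 and 0.25 and the alternatives were chosen with earlier results of these data known. Genes named are USV1 and its 5 neighbours, genes past the test and their neighbours, the 15 a direction with the largest smallest-of-3 difference, members of the functions described (all where 12 or fewer were measured, otherwise the 6 largest with and 3 largest against the median) and the 10 a direction with the smallest p against 0 hours. Other genes were chosen after their values were seen, among them NSL1, NCE103, RRT5, PDC6, QNS1, ICL2, ADY2 and the genes so marked in the text. No set test was run. Arrays hold no read depth, and their number limits the precision. Spotted probes do not separate strands or near-identical genes.

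The fit was tested on simulated data. Alternatives were the values as deposited, quantile normalization, scaling to 1 spread, no time block, each time left out, shared spreads, genes with at least 2 pairs, a plain paired test and pairing with wild type 1 step later.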

Additional observations from a re-analysis of the deposited data

How the results depend on the processing

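The 2 calls of the late strain difference were also made with the values as deposited, with the spread shared with the pair at 0 hours (the same residuals by construction), with genes that had at least 2 pairs, and with wild type 1 step later. There was 1 call after quantile normalization and 4 with arrays scaled to 1 spread. There were 0 calls with the spread shared with the pairs at 0 and 5 hours. The plain paired test made 1 call, of another gene with nearly equal differences. Leaving out a time gave 0 to 3 calls, with 0 without the 1-day pair. Without time point as a block, which drops the pairing of the strains by time, there were 0 calls; replicate numbers themselves pair nothing, as each strain and time has 1 array.

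Of the 210 steady genes, the count was 792 at 0.25, 9 at 1 and 115 with scaled arrays; it was 212 as deposited, 194 after quantile normalization and 206 with wild type 1 step later. The 4 functions became 2 with scaled arrays (the COS family and mating type a markers), 3 after quantile normalization (these and pyrimidine synthesis) and 4 as deposited (these, pyrimidine synthesis and the glyoxylate cycle with gluconeogenesis). They became 1 with wild type 1 step later (respiratory complex IV) and 9 to 12 with a time left out. The median of mean differences for the glyoxylate cycle and gluconeogenesis was -0.027 with wild type 1 step later and 0.62 to 0.93 with a time left out. For mating type a markers it was 0.39 with wild type 1 step later and -0.55 to -0.45 with a time left out. NAD synthesis gave 0.078 to 0.38 with a time left out. The COS family gave -0.41 scaled, -0.11 with wild type 1 step later and -0.67 to -0.53 with a time left out. Among the 30 genes with the largest steady difference, RPA190 (-0.41) and YAT1 (-0.053) changed sign with wild type 1 step later, and TEC1 (-0.11) and ELP3 (0.04) were near 0. Of the other gene and alternative pairs, 345 kept their direction, whatever their size, and their side of the threshold, 9 lost the call (USV1 and YLR162W) and 2 gained it.

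The count of genes whose late difference stood apart from 0 hours was 561 after quantile normalization, against 0 otherwise; that alternative gives the 0-hour arrays (SD 0.49 in the deletion and 0.62 in wild type) the spread of the late ones. Without replicate arrays, the spread between cultures was not measured.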
